A study of Mus musculus with 50 samples.

Results

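Triple Notch receptor blockade was set against an isotype antibody in adult mouse thyroid at 7 days, through the ligand blockade group that 2 sets of libraries have in common. The comparison used 20 of the 50 libraries of the study, chosen by treatment, time and the series of sample IDs in their titles, and no measured value entered the choice. The first set held 5 thyroids after anti-ragweed isotype antibody (RW, 40 mg/kg) and 5 after antibodies to the ligands Jag1 and Jag2 (aJ1aJ2, 20 mg/kg each). The second set held 5 other thyroids after aJ1aJ2 at the same doses and 5 after antibodies to Notch1, Notch2 and Notch3 (aN1aN2aN3, 5, 10 and 20 mg/kg). All mice were C57BL/6 males for which no label names an engineered allele. They were 10 to 14 weeks old (10 to 12 in the series text) and were injected intraperitoneally with 1 dose. The series text also describes daily thyroid hormone injections, but no label ties them to a mouse, so this treatment cannot be told apart from the groups here. The second set has no RW group here, so aN1aN2aN3 was never measured beside RW. For each gene the aN1aN2aN3 effect in the second set (the receptor arm) was added to the aJ1aJ2 effect in the first set (the ligand arm). This sum cancels a set difference that acts equally, on the log scale, on both groups of a set, and no library here tests that condition.

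Notch receptors are surface proteins that are cut when a Jagged or Delta-like ligand on a neighbouring cell binds them. The freed intracellular part enters the nucleus and, with the DNA-binding protein RBPJ and a Mastermind coactivator, switches on genes such as those of the Hes and Hey families. In blood vessels the pathway restrains sprouting tip cells, supports arterial identity and, through Notch3, maintains the mural cells that wrap capillaries. The thyroid is built of hormone-making follicles inside a dense capillary net, with calcitonin-secreting C cells between them.

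Libraries held 15271242 to 29599921 counts, and the sets differed far more than the treatments. Tg, which encodes the hormone precursor thyroglobulin, took 8.87 to 36.5% of counts in the first set and 1.15 to 6.5% in the second. Between the aJ1aJ2 groups of the sets, 12530 of 19570 tested genes (64%) passed the threshold, 6680 higher (34.1%) and 5850 lower (29.9%) in the second set. Short transcripts were higher in the second set (median log2 difference 1.108 in the shortest 3906 genes) and long ones lower (−0.835 in the longest 3906). Markers of neighbouring tissues varied by library. Skeletal muscle genes took 11% of counts in aJ1aJ2 replicate 2 of the first set and 15.9% and 5.86% in aJ1aJ2 replicates 4 and 5 of the second, against 0.0562 to 4.58% in the other 17 libraries. Thymus and T cell genes took 0.0182, 0.0671 and 0.00601% in RW replicates 1, 2 and 3 and at most 0.00549% elsewhere. These 3 thymus-rich libraries are all RW, and RW replicate 5 also carries some thymus genes. The highest share elsewhere, in aJ1aJ2 replicate 1 of the second set, was close to that of RW replicate 3, and that library was kept. Counts for most lists are also given without these 3 RW libraries, which leaves RW replicates 4 and 5, and where they differ much without the 3 muscle-rich libraries. With so few RW libraries a call can be lost while its sum hardly changes. A lost call therefore does not tell thymus content from fewer libraries.

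**Figure D1:**
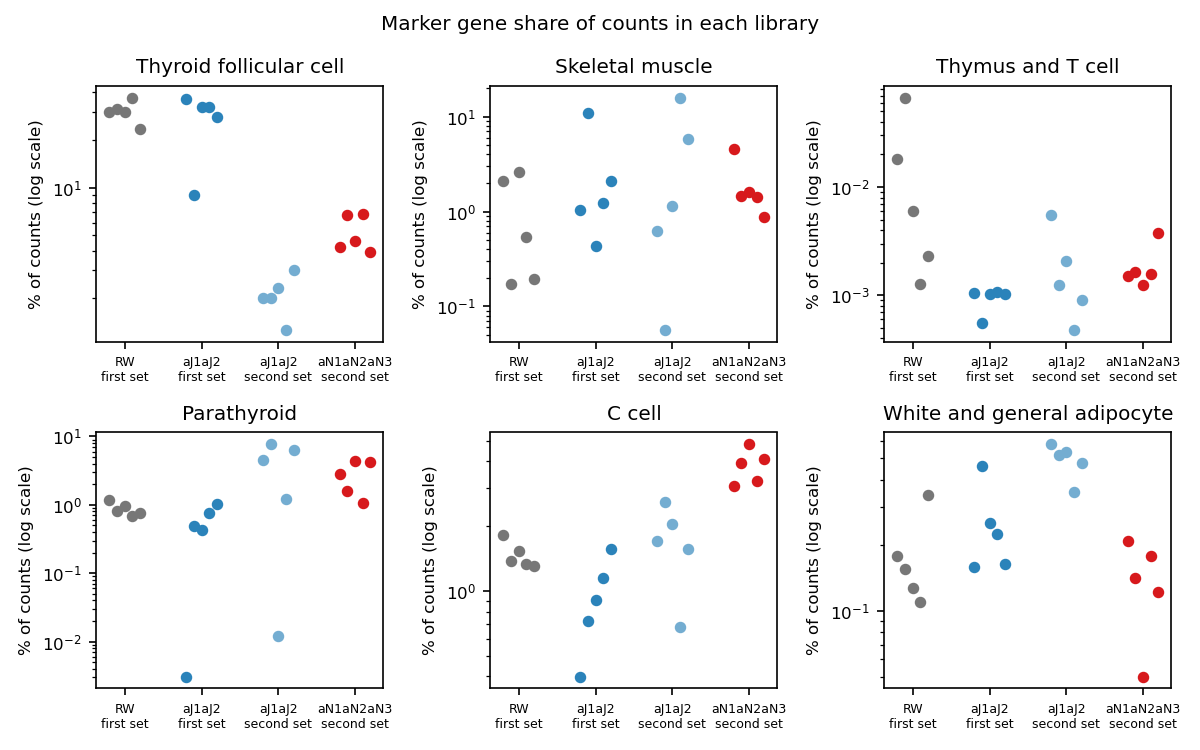
Share of counts, in percent on a log axis, from 6 marker lists in each of the 20 libraries (points, grouped by treatment and set). Thyroid follicular cell genes sit at 8.98 to 36.9% in the first set and at 1.26 to 6.8% in the second, thymus genes are high in 3 RW libraries, and C cell genes are higher in aN1aN2aN3 (3.08 to 4.81%) than in every other library.

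In the sum, 2397 of 19570 genes (12.2%) passed the threshold, 1196 higher (6.11%) and 1201 lower (6.14%), and 1717 of them differed by at least 2-fold. The test was edgeR's quasi-likelihood test over all 20 libraries, with Benjamini-Hochberg adjusted p below 0.05, and every adjusted p below comes from it unless another tool is named. Values are log2 fold changes with their standard error (SE), and levels are CPM, counts scaled to a common effective library size. The receptor arm alone gave 5532 genes (28.3%), 2657 higher (13.6%) and 2875 lower (14.7%). The ligand arm gave 12 (0.0613%), 5 higher (0.0255%) and 7 lower (0.0358%). The receptor arm was the larger of the 2 arms in 2135 of the 2397 genes, and 2134 also passed within it, whereas 11 also passed in the ligand arm. Both arms had the same sign in 1895 of the 2397 genes (79.1%, against 47% of all tested genes) and opposite signs in 502, and a call in the sum favours genes of the first kind. In 308 of the 2397 genes (1.57% of all tested) the arms pointed the same way with an unadjusted p below 0.05 in each. The median of all tested genes in the sum was −0.05. Without the 3 thymus-rich libraries 733 of 20906 tested genes passed, 333 higher and 400 lower. Without the 3 muscle-rich libraries 5806 of 20247 passed, 3154 higher and 2652 lower. The background thus moves with the setting, and list counts under each setting are to be read against it. All 700 and 2308 calls that these fits shared with the full fit had the same sign. Exons of Cadm3, Col3a1, Manf, Ndufb2, Notch2, Rtp4, Srebf1 and Top2a overlap another gene on the same strand in the annotation, and their values are uncertain. Whether the counting used strand is not given in the sources used here, so named genes that overlap a gene on the other strand (among them Tg, Txnip, Zfp36, Cry2, Tef, Junb, Pdia6, Col15a1, Ndufa4l2, Notch1, Notch3, Adam17, Slc25a33 and Spsb1) are uncertain too.

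**Figure D2:**
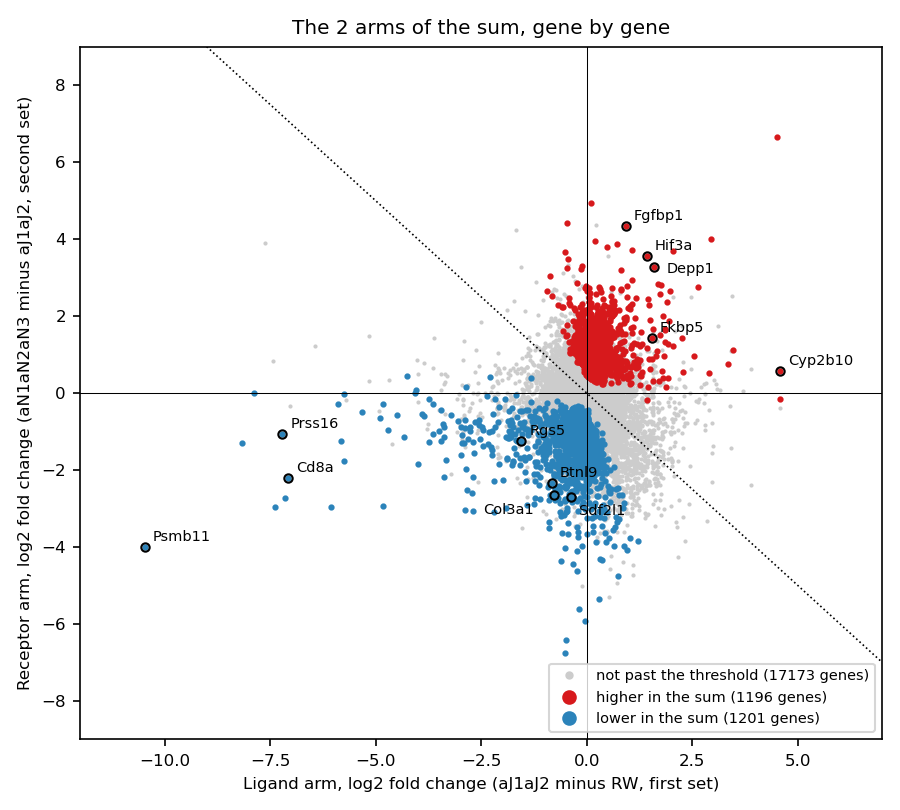
Log2 fold change of each of 19570 genes in the ligand arm (x axis, aJ1aJ2 minus RW, first set) and in the receptor arm (y axis, aN1aN2aN3 minus aJ1aJ2, second set), with the 1196 higher and 1201 lower genes of the sum in colour. The dotted line marks a sum of 0, and most coloured points lie along the vertical axis, where the receptor arm is the larger; fitted values far to the left belong to thymus genes at or near 0 counts in aJ1aJ2, and that of Psmb11 depends on the prior count.

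The genes most raised in the sum were led by Fgfbp1, which encodes a carrier that releases fibroblast growth factors from the matrix. Fgfbp1 stood at 3.44, 2.05, 2.02, 2.17 and 2.45 CPM after RW and at 6.67, 4.21, 3.99, 4.28 and 3.99 CPM after aJ1aJ2 in the first set. Second-set levels were 10.6, 9.05, 14.1, 8.62 and 5.21 CPM after aJ1aJ2 and 86.3, 184, 299, 176 and 220 CPM after aN1aN2aN3. The groups overlapped in neither arm, and aN1aN2aN3 lay far above the other 15 libraries (sum 5.26, SE 0.41, adjusted p = 7.29e-07). Groups did not overlap in 14.2% of all tested genes in the receptor arm (7.67% higher, 6.54% lower) and in 3.15% in the ligand arm (1.46% higher, 1.69% lower). Next in size came Cyp2b10 (5.14), a drug-metabolising cytochrome P450, and Hif3a (4.98), which encodes a hypoxia-inducible factor subunit. They were followed by Depp1 (4.88), a target of FOXO factors, the odorant receptor gene Olfr543 (4.63), the sodium-activated potassium channel gene Kcnt1 (4.60), the receptor gene Mrgprg (4.57) and the transporter gene Slc10a6 (4.32). Their adjusted p-values ran from 2.08e-05 for Hif3a to 0.00832 for Mrgprg.

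Hif3a showed how the sum differs from a plain reading of the groups. Its mean was 4.22 ± 2.8 CPM after RW and 11.4 ± 3.14 CPM after aJ1aJ2 (SD, n = 5), but only 1.77 ± 0.98 CPM after aJ1aJ2 in the second set, where aN1aN2aN3 reached 20.9 ± 5.62 CPM. The receptor arm was 3.56 and the ligand arm 1.42. Cyp2b10 differed in the other way: its receptor arm was 0.57 and its ligand arm 4.57, and the ligand arm held 1 library, aJ1aJ2 replicate 2, at 123 CPM against 4.56 to 18.9 CPM in the other 4. That library is also the one with 11% muscle counts. Without it the sum of Cyp2b10 was 3.69 (adjusted p = 0.00494), below the other 7 genes of this group, and on log2(FPKM + 1) Cyp2b10 did not pass (0.93, adjusted p = 0.118 in limma). Without the thymus-rich libraries Mrgprg no longer passed (4.90, adjusted p = 0.0637).

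Genes with the same sign in both arms and small p in the sum included 4 more that rose. Txnip, which encodes an inhibitor of thioredoxin and of glucose uptake, stood at 502 to 884 CPM after RW (median 727) and at 935 to 1560 CPM after aJ1aJ2 in the first set (median 1170). Levels in the second set were 511 to 1050 CPM after aJ1aJ2 (median 739) and 3030 to 6750 CPM after aN1aN2aN3 (median 5730). Neither arm overlapped (sum 3.53, SE 0.37, adjusted p = 1.16e-05). Slc25a33, a mitochondrial pyrimidine nucleotide carrier, rose by 3.74 (SE 0.35, adjusted p = 6.3e-06), Spsb1, a ubiquitin ligase adaptor, by 3.28 and Cyp2d22, a cytochrome P450, by 2.70. All of these stayed past the threshold when any 1 library was left out and without the thymus-rich libraries.

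Among the direct readouts of Notch signalling, Hey1, a Hey family repressor, was the 1 member of 7 tested that fell, against 6.14% of all genes. The other 6 had negative sums that did not pass. Hey1 stood at 13.6, 20.1, 12.4, 11.6 and 15.7 CPM after RW and at 10.2, 7.34, 8.55, 9.18 and 9.3 CPM after aJ1aJ2 in the first set, with no overlap. In the second set it stood at 8.07, 8.51, 10, 8.15 and 11.8 CPM after aJ1aJ2 and at 7.13, 5.55, 2.5, 8.27 and 3.95 CPM after aN1aN2aN3, where replicate 4 reached into the aJ1aJ2 range. The arms were of like size, −0.76 in the receptor arm and −0.72 in the ligand arm, and the sum was −1.48 (SE 0.35, adjusted p = 0.00914). The call was lost without the thymus-rich libraries (−1.36, adjusted p = 0.0755).

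The median over the 7 readouts was −0.73 in the sum, −0.63 in the ligand arm and −0.06 in the receptor arm, against −0.05 for all genes in the sum. Without the muscle-rich libraries the sum's median was only −0.215, with 1 of 7 lower. In limma, with length and GC trends taken out of each library, it was −0.586, with 3 of 7 lower. Heyl, a Hey relative of mural cells, had a sum of −0.78 (adjusted p = 0.0968), of which −0.72 came from the ligand arm. Its 5 RW libraries (34 to 47.8 CPM) lay above the 5 aJ1aJ2 libraries of the first set (14 to 33.2 CPM). Notch3, itself a Notch target, had a sum of −0.75 (adjusted p = 0.107). Its RW libraries (44.5 to 60.7 CPM) likewise lay above aJ1aJ2 (23 to 40.4 CPM), while in the second set it stood at only 2.48 to 5.73 CPM after aJ1aJ2 and 2.78 to 4.19 CPM after aN1aN2aN3. Hey2 had a sum of −0.73 (adjusted p = 0.285), and Nrarp, a feedback inhibitor of the Notch complex, of −0.45 (adjusted p = 0.487). Hes1 (−0.16) and Dtx1 (−0.11), a ubiquitin ligase of the pathway, were nearer 0, with signs that turned under some settings. Hes5 was too low to be tested.

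Of the other receptors and the ligands, 1 of 8 tested rose, against 6.11% of all genes, with a median of 0.35. None of the 8 passed without the thymus-rich libraries, while 4 of 8 rose without the muscle-rich ones, with a median of 1.25. Notch4, the endothelial receptor that none of these antibodies is raised against, had a sum of 0.99 (SE 0.29, adjusted p = 0.0309). Its level was 34.2 to 40.6 CPM after RW and 40.2 to 46.4 CPM after aJ1aJ2, and in the second set 5.02 to 13 CPM after aJ1aJ2 and 8.86 to 16.5 CPM after aN1aN2aN3. The groups overlapped slightly in both arms, and the call was kept in 14 of 20 fits that left out 1 library and was lost without the thymus-rich libraries (0.98, adjusted p = 0.148). Notch2 had a sum of 1.00 (adjusted p = 0.0552) and Notch1 of 0.66 (adjusted p = 0.315), and without the muscle-rich libraries they passed at 1.54 and 1.30 (adjusted p = 0.00038 and 0.0164). The ligands Jag1 (−0.47), Jag2 (0.04), Dll1 (−0.22), Dll3 (0.69) and Dll4 (−0.31) did not pass, with adjusted p from 0.267 to 0.982. Of 19 genes that cut, modify or transduce the receptors, Adam17, a sheddase able to cut Notch, fell by 0.58 (adjusted p = 0.0325, kept in 13 of 20 such fits) and none rose, a share near the background. No gene of the 19 passed without the thymus-rich libraries, and 6 were higher and 2 lower without the muscle-rich ones. Over all genes the latter fit called 3154 higher and 2652 lower of 20247. The coactivators Maml3 (0.86) and Maml1 (0.78) and the Notch fucosyltransferase gene Pofut1 (−0.52) followed, with adjusted p from 0.0631 to 0.0963.

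Pericyte genes held one of the clearest falls. Rgs5, a regulator of G protein signalling that marks pericytes, stood at 248, 195, 294, 247 and 302 CPM after RW and at 83.3, 124, 74.4, 72.7 and 86 CPM after aJ1aJ2 in the first set. Second-set levels were 55.2, 55.1, 68.2, 70.3 and 36.5 CPM after aJ1aJ2 and 30.1, 10.6, 24.3, 23.8 and 31.1 CPM after aN1aN2aN3. Each step was free of overlap, and both arms passed on their own, at −1.55 in the ligand arm (adjusted p = 0.0286) and −1.25 in the receptor arm (adjusted p = 0.00089). The sum was −2.80 (SE 0.34, adjusted p = 5.94e-05), and −2.88 without the thymus-rich libraries. Ndufa4l2, a mitochondrial protein gene active in pericytes, fell by 3.14 (SE 0.59, adjusted p = 0.00217). It stood at 4.82 to 12.7 CPM after RW in the first set and at 0.11 to 1.09 CPM after aN1aN2aN3 in the second. The highest RW value was that of replicate 5, and the next was 5.89 CPM. These ranges come from different sets, so the gap between them also holds the set difference and does not show the part of each arm. The other 7 of the 9 pericyte genes did not pass, among them Cspg4 (−1.60, adjusted p = 0.0761), and the median of the 9 was −0.78. Over all genes 6.14% were lower. In bulk tissue, fewer cells of a type and less RNA per cell cannot be told apart.

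Endothelial genes split. Of 11 tested, Pecam1, an adhesion molecule of all endothelium, rose by 1.29 (SE 0.20, adjusted p = 0.000417), as did Esam (1.09), a tight junction protein, and Cdh5 (1.19), the endothelial cadherin. Kdr, the main receptor for vascular endothelial growth factor, fell by 1.38 (SE 0.32, adjusted p = 0.00784), and Emcn, a sialomucin of capillaries and veins, by 1.67 (adjusted p = 0.0197). Pecam1 stood at 52.1 to 69.3 CPM after aJ1aJ2 and 114 to 173 CPM after aN1aN2aN3, and Kdr at 39 to 74.1 and 20.3 to 35.2 CPM in the same groups. Thus the genes moved in opposite directions within the same libraries, without overlap for either. In the first set RW and aJ1aJ2 overlapped for both, with ligand arms of 0.13 for Pecam1 and −0.41 for Kdr. Of 10 tip cell and arterial genes, Esm1 (−2.54, adjusted p = 0.0047), a secreted tip cell proteoglycan, and Apln (−1.47, adjusted p = 0.017), the apelin ligand, fell. Gja4 (−0.86, adjusted p = 0.0927), an arterial connexin, and Bmx (−0.99, adjusted p = 0.172), an arterial kinase, did not pass. Esam, Cdh5 and Apln no longer passed without the thymus-rich libraries.

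The lower genes with the same sign in both arms and the smallest p, apart from Rgs5, were Btnl9, Rflnb, Arsi and Cadm3. Btnl9, a butyrophilin-like gene of capillary endothelium, stood at 54.3 to 91.2 CPM after RW and 25.5 to 54.6 CPM after aJ1aJ2, then at 11.4 to 16 CPM after aJ1aJ2 and 1.54 to 3.66 CPM after aN1aN2aN3. RW replicate 1 and aJ1aJ2 replicate 1 met at the border in the first set, and the second set had no overlap (sum −3.17, SE 0.32, adjusted p = 9.34e-06). Arsi, a sulfatase gene, fell by 3.27, Cadm3, a cell adhesion gene, by 2.54 and Rflnb, a filamin regulator, by 1.58. All 4 stayed past the threshold in every fit that left out 1 library and without the thymus-rich libraries.

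Of 11 tested glucocorticoid-responsive genes 7 rose, against 6.11% of all genes, and the median was 2.09. Fkbp5, a chaperone cofactor induced by the glucocorticoid receptor, stood at 82.4, 42.4, 38.8, 32.1 and 26.8 CPM after RW and at 85.5, 230, 92, 114 and 125 CPM after aJ1aJ2 in the first set. Levels in the second set were 59.7, 69.3, 56.4, 111 and 115 CPM after aJ1aJ2 and 206, 214, 202, 249 and 235 CPM after aN1aN2aN3. Both steps were free of overlap, narrowly so in the first set, and the arms were 1.54 and 1.43 (sum 2.97, SE 0.43, adjusted p = 0.000263). Ddit4, an inhibitor of mTORC1, rose by 3.04 (SE 0.30, adjusted p = 7.37e-06), with 7.33 to 15.2 CPM after aJ1aJ2 and 52.6 to 107 CPM after aN1aN2aN3 in the second set but an overlap in the first. Tsc22d3 (2.09), the leucine zipper protein GILZ, and Sgk1 (1.69), a kinase, also rose, as did Cdkn1a, Zbtb16 and Pdk4. Without the thymus-rich libraries 5 of 11 passed with a median of 2.05. Mt1 (0.35) and Mt2 (−0.18), the metallothioneins of the list, did not pass.

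Of 18 tested genes of the circadian clock 8 rose in the sum, against 6.11% of all genes, and none fell, with a median of 1.34. In the receptor arm 5 were higher and 1 lower, against 13.6% and 14.7% of all genes. Per1, a repressor of the CLOCK and ARNTL activator pair, stood at 97.3, 105, 155, 131 and 90 CPM after RW and at 161, 219, 220, 270 and 231 CPM after aJ1aJ2. In the second set it stood at 13.9, 15.6, 12.5, 17.6 and 24.1 CPM after aJ1aJ2 and at 33.4, 42.3, 76.5, 45.3 and 129 CPM after aN1aN2aN3. Each step was upward without overlap (sum 2.89, SE 0.42, adjusted p = 0.000263), and the set difference was −3.72, so that 4 of the 5 aN1aN2aN3 libraries were below all 5 RW libraries. Ciart, another clock repressor, rose by 3.25 (SE 0.60, adjusted p = 0.00203), from 2.11 to 2.78 CPM after RW to 3.95 to 11.3 CPM after aJ1aJ2 in the ligand arm. Tef, an output transcription factor, rose by 1.26 (SE 0.23, adjusted p = 0.00196) and was one of the genes that also passed in the ligand arm (1.03, adjusted p = 0.0286). Its receptor arm was 0.24. Cry2 (1.95), a cryptochrome repressor, Nr1d1, Per3, Npas2 and Per2 made up the 8. Arntl (0.83) and Clock (−0.48), the activator pair named above, did not pass. Of the 18, 4 passed without the thymus-rich libraries, where 333 of all 20906 tested genes were higher. Without the muscle-rich ones 13 passed, where 3154 of 20247 genes were higher. The labels used here give no hour of tissue collection.

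The clock pair binds the E-box CACGTG, a palindrome that reads alike on both strands, and the promoters of 3 of the risen genes are shown because they carry it. The motif was chosen after the values were seen. The windows are the 250 bases before a RefSeq start (GRCm38.p6), written 5′ to 3′ on the gene's strand with the E-box in capitals. They lie at chr3:95882229-95882478 (minus strand) for Ciart, chr11:69098699-69098948 (plus strand) for the first start of Per1 and chr15:81811164-81811413 (plus strand) for the second start of Tef.
Ciart: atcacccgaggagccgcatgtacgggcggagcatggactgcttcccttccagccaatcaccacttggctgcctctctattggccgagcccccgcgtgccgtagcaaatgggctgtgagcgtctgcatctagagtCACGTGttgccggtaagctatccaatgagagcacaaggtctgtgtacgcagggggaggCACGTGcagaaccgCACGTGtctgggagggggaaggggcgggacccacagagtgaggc
Per1: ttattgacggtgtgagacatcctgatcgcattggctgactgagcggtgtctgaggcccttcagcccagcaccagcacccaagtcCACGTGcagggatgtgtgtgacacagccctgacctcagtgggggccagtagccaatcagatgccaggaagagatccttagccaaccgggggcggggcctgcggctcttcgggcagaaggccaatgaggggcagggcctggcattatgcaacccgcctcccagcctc
Tef: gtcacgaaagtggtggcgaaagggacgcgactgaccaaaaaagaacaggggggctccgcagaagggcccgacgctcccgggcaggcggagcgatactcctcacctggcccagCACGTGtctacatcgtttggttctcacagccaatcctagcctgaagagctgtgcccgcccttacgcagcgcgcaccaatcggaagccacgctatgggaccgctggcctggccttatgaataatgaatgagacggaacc
The Ciart window held the motif 3 times, the Per1 window 1 time, 166 bases before the start, and the Tef window 1 time, 138 bases before it. The other Per1 window held none. Its start and that of the Tef window shown match the first bases of an annotated transcript, whereas those of the Ciart and Per1 windows shown do not. Of the 15 clock genes with a RefSeq promoter, 5 held CACGTG (Per1, Cry1, Tef, Ciart and Bhlhe41), of which Cry1 and Bhlhe41 did not pass, against 6.9% of all 27025 genes. The RBPJ core TGGGAA, searched on both strands, was found in 2 of the 5 Notch readouts with a promoter (Hes5 and Hey2) and in 24.1% of all genes. A match is only a match of letters in this window.

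**Figure D3:**
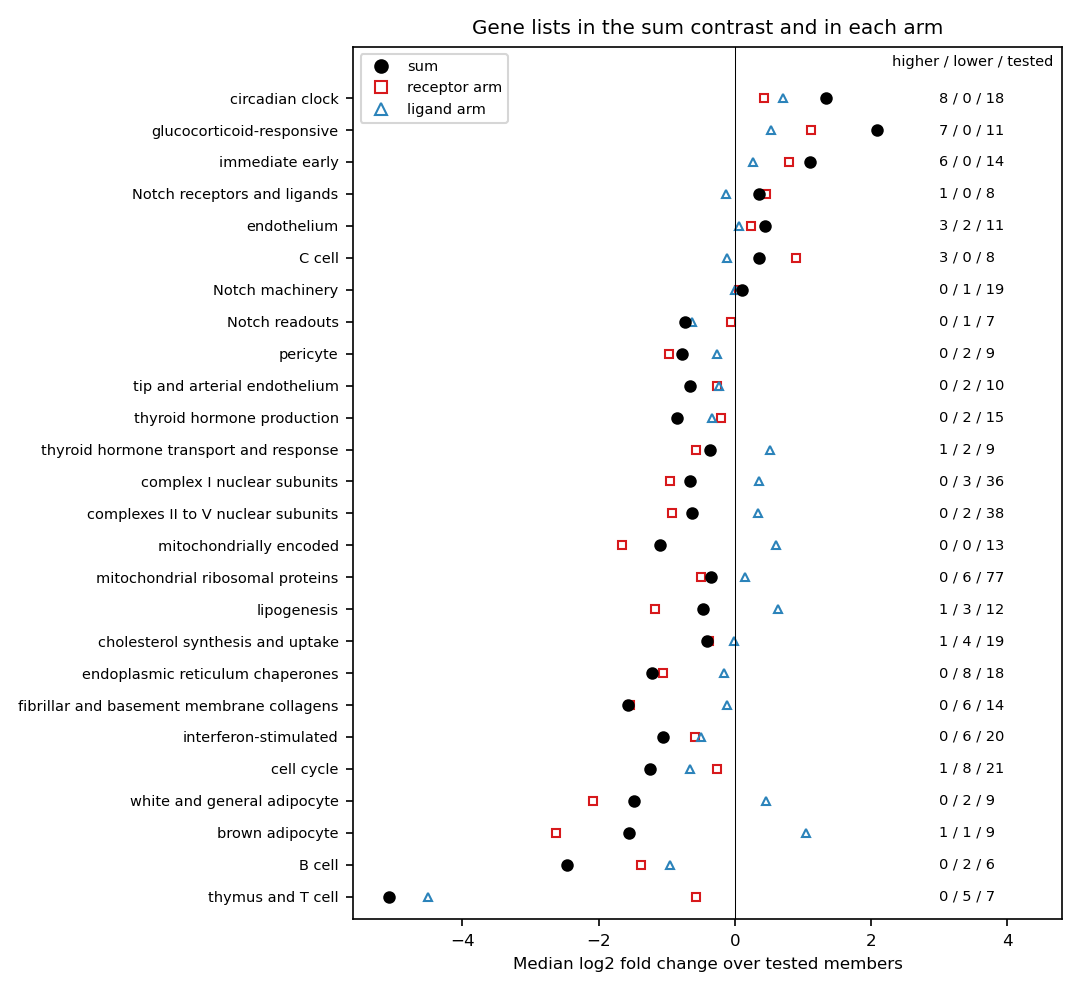
Median log2 fold change over the tested members of 26 gene lists in the sum (filled circles), the receptor arm (open squares) and the ligand arm (open triangles), with the number higher, lower and tested in the sum at the right. Clock, glucocorticoid-responsive and immediate early genes lie to the right of 0 in the sum and in both arms, and respiratory and fat cell lists have arms of opposite sign.

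Immediate early genes, which cells switch on within minutes of a stimulus, rose in 6 of 14 cases, against 6.11% of all genes. Their median was 1.10. Zfp36, which encodes an mRNA-destabilising protein, stood at 46, 52.2, 46.1, 52.1 and 62.9 CPM after RW and at 62.1, 58.7, 70.1, 57.3 and 62.8 CPM after aJ1aJ2. Second-set levels were 30.6, 40.5, 34.1, 33.7 and 46.7 CPM after aJ1aJ2 and 62.5, 148, 195, 101 and 262 CPM after aN1aN2aN3. Here the first set overlapped and the second did not (sum 2.31, SE 0.36, adjusted p = 0.000491, ligand arm 0.26). Btg2 (2.21), an antiproliferative gene, and the AP-1 genes Junb (2.27) and Fosl2 (1.85) behaved alike in the receptor arm, without overlap, with ligand arms of 0.28, 0.42 and −0.21. Dusp1 and Jun also passed. Fos (1.11) and Egr1 (2.19), the usual markers of a fresh stimulus, did not. Without the thymus-rich libraries 3 of 14 passed.

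Chaperones of the endoplasmic reticulum, which fold secreted proteins such as thyroglobulin, fell in 8 of 18 cases against 6.14% of all genes, with a median of −1.22 and none higher. Sdf2l1, a cofactor of the chaperone BiP, stood at 61.7, 108, 74.9, 91.2 and 136 CPM after RW and at 107, 10.3, 72.5, 77.7 and 94.3 CPM after aJ1aJ2. Levels in the second set were 145, 120, 206, 78 and 167 CPM after aJ1aJ2 and 26.6, 18.3, 26.4, 22.6 and 16.8 CPM after aN1aN2aN3. The groups overlapped in the first set and were wide apart in the second (sum −3.08, SE 0.57, adjusted p = 0.00211, receptor arm −2.69). Manf (−2.28), a secreted stress-responsive factor, Calr (−2.01), the lectin chaperone calreticulin, and Pdia6 (−1.96), a disulfide isomerase, fell likewise. Hsp90b1, Dnajb11, Hspa5 and Pdia3 completed the 8, and 6 of 18 passed without the thymus-rich libraries. In aJ1aJ2 replicate 2 of the first set, where muscle genes took 11% of counts, all 4 of the genes with values above were far below the other 4 libraries. Without the muscle-rich libraries 12 of 18 were lower and 2 higher, and the median was −1.08. That fit called 2652 lower and 3154 higher of all 20247 genes.

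Of the 15 tested genes of thyroid hormone production 2 fell, against 6.14% of all genes, and none rose. None passed without the thymus-rich libraries, and without the muscle-rich ones 4 fell and 2 rose. The latter fit called 2652 lower and 3154 higher of all 20247 genes. Slc5a5, the sodium iodide symporter that brings iodide into the follicle cell, stood at 268, 529, 438, 423 and 318 CPM after RW and at 322, 58.8, 175, 329 and 292 CPM after aJ1aJ2. In the second set it stood at 96.7, 63, 66.5, 53.6 and 99.4 CPM after aJ1aJ2 and at 23.1, 43.8, 8.7, 18.4 and 7.39 CPM after aN1aN2aN3. Overlap was present in the first set and absent in the second (sum −2.65, SE 0.63, adjusted p = 0.0104, receptor arm −1.90). Dio1, the deiodinase that converts thyroxine, fell by 1.76 (SE 0.54, adjusted p = 0.0373), but the call was kept in 8 of 20 fits that left out 1 library. Neither passed without the thymus-rich libraries (Slc5a5 −2.55, adjusted p = 0.0712, and Dio1 −2.00, adjusted p = 0.0899).

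Tg had a positive sum, 1.24 (SE 0.48, adjusted p = 0.0946), which did not pass. It passed without the muscle-rich libraries (1.70, adjusted p = 0.00101), with DESeq2 (1.23, adjusted p = 0.0224) and with library quality weights in limma (1.62). Its 5 aN1aN2aN3 libraries (30300 to 51900 CPM) lay above the 5 aJ1aJ2 libraries of the second set (12500 to 27000 CPM), and the receptor arm was 1.32. The transcription factor genes Pax8 (0.71), Nkx2-1 (0.14), Foxe1 (−0.56) and Hhex (−0.89) did not pass. The thyrotropin receptor gene Tshr had a sum of −0.68 (adjusted p = 0.26). Iyd (−1.33), which salvages iodide, and Slc26a7 (−1.30), an anion transporter of the follicle, had adjusted p of 0.0903 and 0.0919. The hydrogen peroxide system did not pass either, with Duoxa2 at −1.39, Duox1 at −0.86 and Duox2 at −0.30. Duoxa1 and Duoxa2 overlap each other on opposite strands, and their values are uncertain. The median of the 15 was −0.86, and Slc26a4 was too low to be tested.

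**Figure D4:**
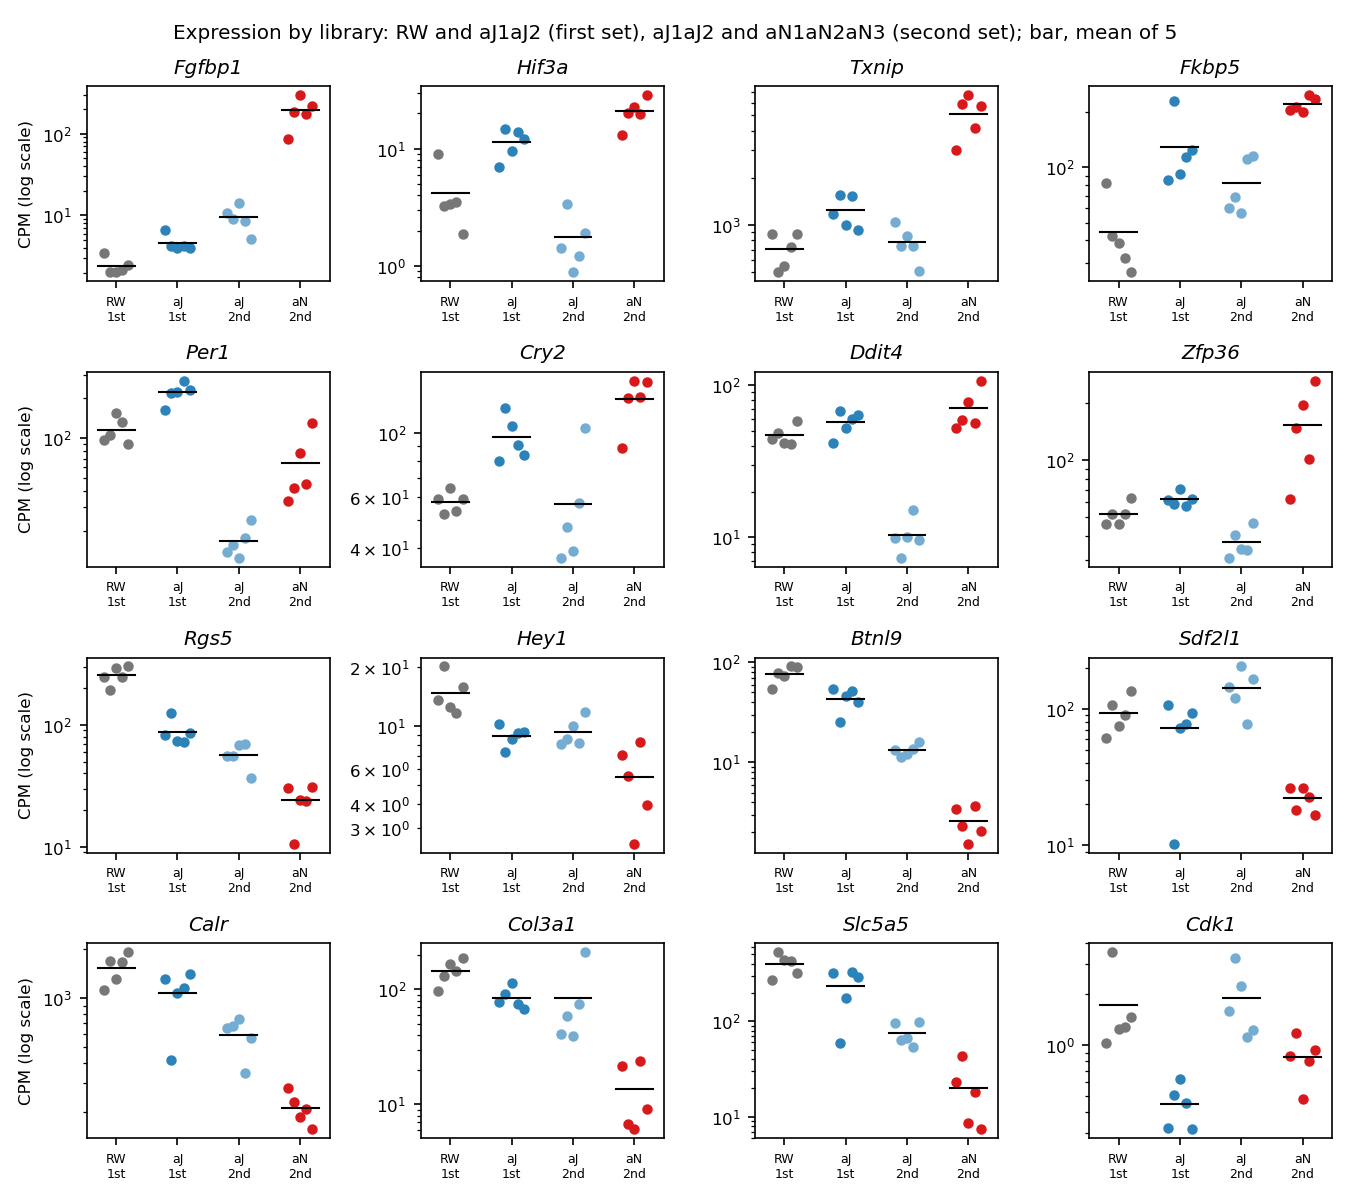
Expression of 16 named genes in each library (points, CPM on a log axis), with a bar at the mean of the 5 libraries of each group; RW and aJ1aJ2 are of the first set, the second aJ1aJ2 column and aN1aN2aN3 (aN) of the second. Fgfbp1, Txnip and Fkbp5 step up in both sets, Rgs5 steps down in both, and Per1 shows the large drop between the aJ1aJ2 groups that the sum takes out.

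Genes of thyroid hormone transport and response moved in both directions, against 6.11% of all genes higher and 6.14% lower. Of 9 tested, Klf9, a direct target of thyroid hormone and glucocorticoid receptors, rose by 2.25 (SE 0.35, adjusted p = 0.000507), while Thrsp (−2.65, adjusted p = 0.00187), a lipogenic regulator, and Me1 (−1.26, adjusted p = 0.0111), malic enzyme, fell. The receptor gene Thra had a sum of 0.61 (adjusted p = 0.149), and its exons overlap those of Nr1d1. Thrsp stood at 536 to 1110 CPM after aJ1aJ2 and 26.7 to 124 CPM after aN1aN2aN3, with a positive ligand arm of 0.71. Klf9, in contrast, was positive in both arms (0.89 and 1.36). All 3 passed without the thymus-rich libraries.

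Lipid synthesis genes fell in 3 of 12 cases and rose in 1, and without the thymus-rich libraries in 2 and 0. Of all genes in the full fit 6.14% were lower and 6.11% higher. Scd1, the stearoyl-CoA desaturase, stood at 3200 to 7060 CPM after RW and 3780 to 6500 CPM after aJ1aJ2, then at 764 to 2740 CPM after aJ1aJ2 and 71.5 to 261 CPM after aN1aN2aN3. The fall was wholly within the second set, with a receptor arm of −3.66 and a ligand arm of 0.01 (sum −3.65, SE 0.50, adjusted p = 0.000205). Agpat2 (−1.91) and Dgat2 (−2.04), both enzymes of triglyceride assembly, also fell, and Srebf1 (1.53), a lipogenic transcription factor, rose. Dgat2 and Srebf1 lost their calls without the thymus-rich libraries (adjusted p = 0.108 and 0.109). Markers of fat cells moved with them. White and general adipocyte genes took 0.352 to 0.581% of counts after aJ1aJ2 in the second set and 0.05 to 0.209% after aN1aN2aN3, against 0.11 to 0.461% in the first set. Of their 9 genes Adipoq (−1.62, adjusted p = 0.0236), the adipokine adiponectin, and Lep (−3.22, adjusted p = 0.041), leptin, fell. Retn (−2.03, adjusted p = 0.0529) and Fabp4 (−1.48, adjusted p = 0.102) did not pass. None of the 9 passed without the thymus-rich libraries, where Adipoq was −1.81 (adjusted p = 0.0716) and Lep −2.13 (adjusted p = 0.29). The part of fat in the fall of the lipid genes was not tested. Agpat2 and Srebf1 share exons with genes on the other strand and are uncertain, and Lep was kept in 6 of 20 fits that left out 1 library.

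Genes of the respiratory chain mostly had negative sums, and how many passed depended on how muscle was handled. Of 36 nuclear genes of complex I, Ndufb2 (−1.56), Ndufa1 (−1.68) and Ndufb3 (−1.09) fell, with adjusted p from 0.0132 to 0.0389, a share near the background of 6.14%, and Ndufc1 (−1.23) had an adjusted p of 0.0549. The median of the 36 was −0.66, made of a receptor arm of −0.95 and a ligand arm of 0.35, and 34 of the 36 sums were negative. Complexes II to V had 2 of 38 lower and a median of −0.63, and the 13 genes of the mitochondrial genome had none past the threshold and a median of −1.10. The mitochondrial ribosome had 6 of 77 lower, also near the background. With the muscle share as a covariate, 15 of 36 complex I genes, 14 of 38 of complexes II to V, 10 of 13 of the mitochondrial genome (median −1.55) and 12 of 77 of the mitochondrial ribosome were lower. Without the muscle-rich libraries these counts were 17, 19, 6 and 27, and without the thymus-rich ones 1, 0, 0 and 4. Over all genes, 1661 of 19570 were lower with the covariate and 2652 of 20247 without the muscle-rich libraries. Without the thymus-rich ones 400 of 20906 were lower. With either setting for muscle, 1 gene of the mitochondrial ribosome was higher. These are short transcripts, and the set difference of the complex I genes had a median of 1.84, larger than their sum. With length and GC trends taken out of each library, their median was −0.55 with 4 genes lower, and that of the mitochondrial genome was −0.50.

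**Figure D5:**
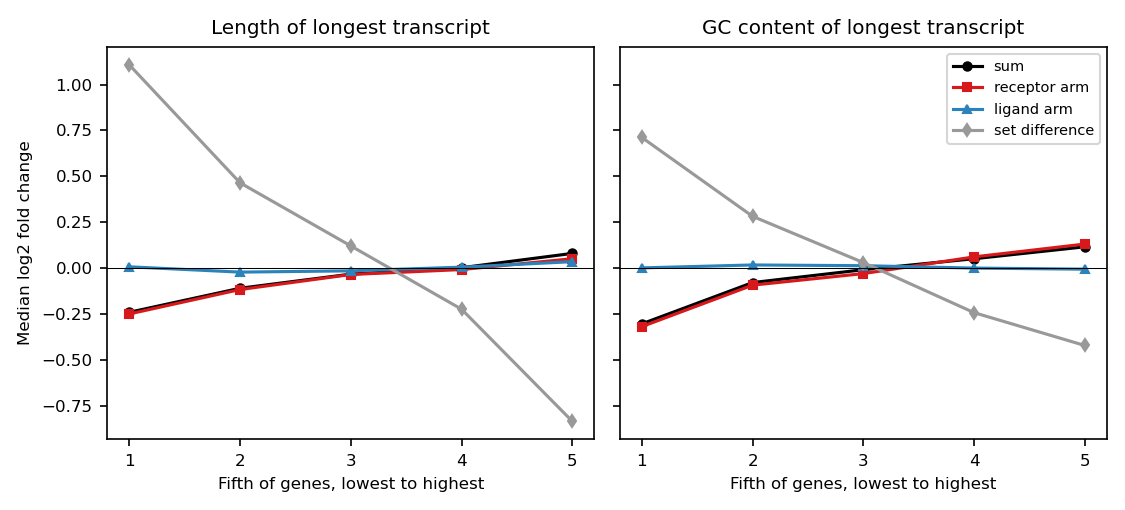
Median log2 fold change of genes in 5 equal classes of transcript length (left) and GC content (right) in the sum, the receptor arm, the ligand arm and the set difference. The set difference runs from 1.108 to −0.835 over length, the sum from −0.24 to 0.08 over length and from −0.30 to 0.12 over GC content, and the ligand arm stays near 0.

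Direction in the sum varied with base composition. Among the 3906 genes with the lowest GC content 63 were higher and 415 lower, and among the 3906 with the highest 378 were higher and 147 lower. By length, the shortest 3906 held 109 higher and 251 lower and the longest 3906 held 301 and 178. After the trends were removed 2527 genes passed, 1883 of them also in the full fit and all of these with the same sign. Clock (7 of 18), glucocorticoid-responsive (6 of 11), immediate early (6 of 14) and chaperone genes (9 of 18 lower) gave similar counts there.

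Of 14 fibrillar and basement membrane collagens 6 fell in the sum, against 6.14% of all genes, and none rose, with a median of −1.57. Col3a1, a fibrillar collagen of soft tissue, stood at 96.2, 131, 168, 146 and 187 CPM after RW and at 77, 91.8, 114, 74.4 and 68 CPM after aJ1aJ2. Second-set levels were 40.8, 58.4, 39.1, 74.5 and 211 CPM after aJ1aJ2 and 21.7, 6.77, 6.06, 23.8 and 9.09 CPM after aN1aN2aN3. The second set had no overlap, the first a small one (sum −3.43, SE 0.64, adjusted p = 0.00231). Col15a1 (−3.03), a collagen of vessel and muscle basement membranes, Col6a3 (−2.50), Col14a1 (−1.97), Col6a1 and Col1a1 also fell, whereas Col4a1 (0.31) and Col4a2 (0.58), the core of basement membranes, did not pass. Fibroblast genes fell in 3 of 7 cases (Lum, Col1a1 and Dpt), while Pdgfra (−0.10) and Dcn (−0.07), which also mark these cells, were near 0. Collagen counts were 2 of 14 without the thymus-rich libraries, and 4 of 14 lower with 2 higher, at a median of −0.79, without the muscle-rich ones. The latter fit called 2652 lower and 3154 higher of all 20247 genes. Fibroblast genes passed in 1 of 7 cases without the thymus-rich libraries.

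The lowest sums belonged mostly to genes of the thymus, and Psmb11 and Prss16 were high in 4 of the 5 RW libraries. Psmb11, the proteasome subunit of cortical thymic epithelium, had 255, 291, 168, 0 and 154 counts in the RW libraries and 0 in all 5 aJ1aJ2 libraries of the first set. In the second set it had 32, 0, 1, 27 and 0 counts after aJ1aJ2 and 1, 0, 0, 3 and 0 after aN1aN2aN3, so no fitted fold is given for it. Prss16, the thymus-specific serine protease, stood at 48.2, 134, 43.6, 0.67 and 23.2 CPM after RW and at most 5.06 CPM in the other 15 libraries. Dntt, Cd8b1, Cd8a, Themis, Slc46a2 and Chrna9 completed the 8 lowest, with sums from −10.3 to −7.76. In RW replicate 5 Dntt was at 0 and Themis at 0.196 CPM. Second-set aJ1aJ2 replicate 1 exceeded RW replicate 3 for Dntt (2.78 against 1.74 CPM), Themis (6.6 against 1.8) and Cd8b1 (11.9 against 4.74). Chrna9 was highest in second-set aJ1aJ2 replicate 5, at 12.9 CPM against 0.0556 to 2.22 CPM after RW. In the thymus and T cell list 5 of 7 tested genes fell (Cd8a, Dntt, Cd3d, Cd4 and Cd3e). Without RW replicates 1, 2 and 3 the count was 0 of 7, while Psmb11 and Prss16 (−6.20, adjusted p = 0.0369), both high in RW replicate 5 too, still passed. Rag1, Rag2 and Ptcra, which mark developing T cells, were too low to be tested. The share of thymus genes moves with the RW label, and its part in the other lists was not tested.

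Some division genes fell too. Of 21 tested cell cycle genes 8 fell in the sum, against 6.14% of all genes, with a median of −1.24. Mcm7, a replication helicase subunit, rose by 0.74. In the receptor arm the median was −0.26, with 4 genes higher and 3 lower, against 13.6% and 14.7% of all genes. The ligand arm had a median of −0.66, and no gene of the list passed in it. Cdk1, the kinase that drives mitosis, stood at 1.03, 3.55, 1.25, 1.28 and 1.47 CPM after RW and at 0.32, 0.51, 0.63, 0.45 and 0.32 CPM after aJ1aJ2. Levels in the second set were 1.58, 3.29, 2.24, 1.11 and 1.22 CPM after aJ1aJ2 and 0.86, 1.18, 0.48, 0.81 and 0.94 CPM after aN1aN2aN3. The first set was free of overlap and the second overlapped by 1 library (sum −3.06, SE 0.55, adjusted p = 0.00151). Top2a (−4.57), a topoisomerase of dividing cells, was at 19.8 CPM in RW replicate 2, the library richest in thymus genes, and at 2.5 to 6.29 CPM in the other RW libraries. Ccnb2 (−3.53) and Ccna2 (−1.48), both mitotic cyclins, also fell. Without the thymus-rich libraries 2 of 21 passed, Cdk1 (−2.74, adjusted p = 0.0137) and Top2a (−3.05, adjusted p = 0.0396), and the median was −1.16.

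Interferon-stimulated genes fell in 6 of 20 cases, against 6.14% of all genes, with a median of −1.06. Isg15, a ubiquitin-like antiviral protein, stood at 2.23 to 6.38 CPM after RW, 0.95 to 2.97 after aJ1aJ2, 3.39 to 6.2 after aJ1aJ2 in the second set and 0.81 to 2.6 after aN1aN2aN3 (sum −2.31, SE 0.53, adjusted p = 0.00751). The receptor arm had no overlap. Oas2 (−2.05), a sensor of viral RNA, Ifi44 (−1.86) and Rtp4 (−1.60) fell with adjusted p from 0.0143 to 0.0161, and Oas1a and Ifit1 completed the 6. Levels were low, at 0.67 to 19.9 CPM for the group means of these 4 genes, and 1 of 20 passed without the thymus-rich libraries.

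C cell genes rose in 3 of 8 cases, against 6.11% of all genes. Calca, which encodes calcitonin, stood at 10200, 13700, 15500, 5250 and 10900 CPM after aJ1aJ2 and at 19500, 25200, 26100, 22400 and 23300 CPM after aN1aN2aN3 in the second set, without overlap. In the first set it ranged from 2070 to 3660 CPM after RW and from 1460 to 4800 CPM after aJ1aJ2, which overlap (sum 1.40, SE 0.43, adjusted p = 0.0369, kept in 8 of 20 fits that left out 1 library). Chgb (2.08, adjusted p = 0.00294) and Scg2 (1.54, adjusted p = 0.0178), granins of secretory granules, rose as well. The median of the 8 was 0.35. None of the 8 passed without the thymus-rich libraries, where the median was 0.79 and Chgb (1.85, adjusted p = 0.0593), Scg2 (1.29, adjusted p = 0.16) and Calca (1.13, adjusted p = 0.248) had sums of like size.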

How the data were processed

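Whole thyroids were profiled by bulk RNA-seq. The authors deposited raw counts per gene and an FPKM table (per the file headers and values). The submitters' processing notes name GSNAP and limma without versions, and for the genome build, the counter and its strand setting nothing is given in the sources used here. Of 52636 gene IDs 52403 had a symbol in the reference table.

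The deposited counts of the 20 libraries entered 1 edgeR 4.0.16 quasi-likelihood fit (R 4.3.3) with TMM scaling, 1 coefficient per group and robust dispersion. Genes were kept by filterByExpr (minimum count 10, minimum total 15), which left 19570. P-values are two-sided and adjusted by Benjamini-Hochberg over all of them, with a threshold of 0.05. All 4 contrasts came from that fit, and the 2 arms share no library. The labels number the samples of a group but do not say more of their origin, so p-values measure the spread between these samples. None of 40 replicate pairs agreed within sampling noise (smallest chi-square per degree of freedom 15.6). In counts simulated from these libraries, the fit called 72% of genes raised 4-fold and 10% of genes raised 2-fold in the sum. The changed genes had a mean of at least 1 CPM and were changed in aN1aN2aN3 only. The simulation held no set difference, no length or GC trend and no library rich in muscle or thymus genes. These call rates therefore need not hold for the data.

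Members and lists were chosen with earlier results of these data known. Named genes were the 8 largest changes in each direction (mean of at least 1 CPM), the 5 smallest p-values in each direction with both arms of 1 sign and an unadjusted p below 0.05, all tested genes of the Notch readout, receptor and hormone production lists, and the 4 smallest p-values of each described list. Some genes that meet this rule are not reported here. Others named beside them only complete a list's count or were chosen after their values were seen. Alternatives were DESeq2 1.42.0, limma 3.58.1 on counts and on log2 of the authors' deposited FPKM plus 0.1 or 1, other scalings and filters, a replicate block, a muscle covariate and each library left out. Transcript length, GC content and exon overlap came from the reference annotation, whose build may not be the authors'.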

Additional observations from a re-analysis of the deposited data

Results flagged for a closer look

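Among the 119 named genes, 476 groups of 5 libraries were searched for 1 library far from the other 4 (gap over range above 0.71), and 48 (10.1%) held one, where chance gives about 1 in 20. Of these, 18 were in aJ1aJ2 replicate 2 of the first set, in which skeletal muscle genes took 11% of counts. There Tg (116000 CPM), Slc26a7 (241), Duox2 (13.5), Duoxa2 (8.14), Iyd (183), Dio1 (78.6), Nkx2-1 (127), Notch3 (23), Emcn (28.1) and Apln (1.67) were low. So were the chaperone genes Sdf2l1 (10.3 CPM), Calr (415), Manf (48.6) and Pdia6 (122). Depp1 (55.7 CPM), Klf9 (357), Agpat2 (433) and Fabp4 (2460) were high in that library.

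In RW replicate 5, Notch1 (47.4 CPM), Notch2 (90.3), Duoxa1 (7.75), Klf9 (98.2) and Ndufa1 (104) stood apart from the other RW libraries, as did Ndufa4l2 (12.7) and Gja4 (16.6). Psmb11 was at 0 in RW replicate 4, Nrarp was at 2.37 CPM in RW replicate 1 and Cdk1 was at 3.55 CPM in RW replicate 2. In aJ1aJ2 replicate 1 of the first set, Fgfbp1 (6.67 CPM), Slc46a2 (0.0648) and Dtx1 (4.99) stood apart.

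In the second set, aJ1aJ2 replicate 4, with 15.9% muscle counts, stood apart for Slc25a33 (53.5 CPM), Duoxa2 (26.8), Ccnb2 (0.175), Ciart (1.51) and Junb (22). Replicate 5 of that group, with 5.86% muscle counts, was high for Spsb1 (68.8 CPM), Foxe1 (232), Tef (269) and Tsc22d3 (300). In aN1aN2aN3 replicate 1, Ndufb2 (126 CPM), Ndufb3 (71.4) and Ndufc1 (86.1) were high and Cyp2d22 (41.5) and Cry2 (88.6) low. Rgs5 was low in aN1aN2aN3 replicate 2 (10.6 CPM), and Btg2 (658 CPM) and Cd4 (2.68) were high in replicate 5. The part of muscle in these values was not tested.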

How the results depend on the processing

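The count of 2397 genes in the sum lay within 1.5 times of itself under RLE factors, Tg left out of scaling, both other filters, DESeq2, both FPKM scales, the fit of all 50 libraries, the muscle covariate, limma-trend, and length and GC trends removed. Library quality weights gave 7056 (3740 higher, 3316 lower). With the 3 thymus-rich libraries left out it was 733 (333 and 400), and with the 3 muscle-rich ones left out 5806 (3154 and 2652). These 2 settings, limma-trend, the length and GC setting and the own-set fits were chosen after seeing the data, and the cause of the differences was not tested. Calls shared with the full fit kept their sign in every setting. Leaving out 1 library gave 1658 (without aN1aN2aN3 replicate 3) to 3146 (without aJ1aJ2 replicate 4 of the second set), 851 to 1550 higher and 807 to 1653 lower.

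The receptor arm (5532) gave 8526 with quality weights, 3614 fitted on its own set and 4219 to 6215 with 1 library left out, and the set difference 11890 to 13020. The ligand arm (12 genes, 1483 at an unadjusted p below 0.05) gave 244 with DESeq2, 878 with quality weights, 29 and 49 on FPKM plus 0.1 and 1, 6 with all 50 libraries, 20 with the muscle covariate, 25 with limma-trend, 43 with length and GC trends removed and 37 without muscle-rich libraries. It gave 0 in edgeR without the thymus-rich libraries and fitted on its own set, and 0 (without RW replicate 2) to 49 (without RW replicate 4) with 1 library left out.

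Replicate numbers did not pair the samples: same-numbered deviations correlated at −0.413 to 0.163 in the first set and −0.206 to 0.0444 in the second, and 1 and 0 of 10 samples correlated best with their own number. A replicate block gave 1344 genes in the sum (753 and 591), 0 in the ligand arm and 8195 in the set difference.

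Signs turned only for genes that did not pass. With quality weights Hes1 was 0.24, Dtx1 0.454, Dll1 0.65 and Duox2 0.194. With the muscle covariate Jag2 was −0.0367, and with length and GC trends removed Hes1 was 0.118 and Nkx2-1 −0.0646. Without the thymus-rich libraries Dtx1 was 0.208 and Nkx2-1 −0.134. Without the muscle-rich ones Hes1 was 0.0371, Dtx1 0.561, Dll1 0.756, Dll4 0.09 and Duox2 0.222. With 1 library left out Hes1 ran from −0.364 to 0.106, Dtx1 from −0.265 to 0.318, Jag2 from −0.189 to 0.52, Dll1 from −0.407 to 0.0515 and Nkx2-1 from −0.00232 to 0.338. Col15a1 and Col14a1 did not pass on either FPKM scale.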

Other observations

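The ligand arm's 12 genes were read after their values were seen. Beside Rgs5, Tef and Prss16, the sum also called Klf15 (ligand arm 1.58, receptor arm 1.68), a Krüppel-like transcription factor, Fmo2 (1.43 and 1.17), a flavin monooxygenase, Galnt15 (1.85 and 1.32), a mucin glycosyltransferase, and Apod (1.64 and 0.97), apolipoprotein D. In these 4 both arms passed on their own, with ligand arm adjusted p from 0.0286 to 0.0302 in edgeR. Ets1, a transcription factor of lymphocytes and endothelium, had arms of −0.94 and −0.25, and Tbata, a gene of thymic stroma, of −5.76 and −1.77. Sgpl1 and Fcgbp fell in the ligand arm (−1.32 and −2.29) with receptor arms of 0.38 and 0.43. Dcdc2a passed in both arms with opposite signs (−1.43 and 0.96) and had a sum of −0.46.

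Several smaller lists held genes that moved in both directions in the sum. Over all genes 6.11% were higher and 6.14% lower, and some of these lists were near those shares. Among 19 antioxidant enzymes Prdx6 rose by 2.00, while Prdx1 (−1.44) and Txn1 (−1.13) fell. Of 13 integrated stress response genes Sesn2 (2.19) and Trib3 (1.53) rose and Ddit3 (−1.07) fell. Of 15 genes that fold and crosslink collagen Lox (2.43), the lysyl oxidase, and Fkbp10 (0.92) rose, while Serpinh1 (−1.41), the collagen chaperone, Loxl2 (−2.23) and Loxl4 (−1.26) fell. Without the thymus-rich libraries 1 of the 15 was higher and 1 lower. Of 19 genes of cholesterol synthesis and uptake Fdft1 (1.06) rose, and Hmgcs1 (−0.98), Dhcr7 (−0.95), Msmo1 (−0.94) and Mvk (−0.72) fell, but none of the 19 passed in edgeR without the thymus-rich libraries.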
